A study of Mus musculus domesticus with 18 samples.

Results

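The 30 genes studied here belong to hepatic fatty acid oxidation and its control by the nuclear receptor PPAR alpha, and were compared in livers of wild house mice from high and low altitude. A gene was taken where the array held a probe set for that gene alone, and where it held several, the probe set with the highest mean over all arrays represented it. This gave 29 of the 30 listed genes, out of 18193 named genes measured. Cyp4a10, a fatty acid hydroxylase gene, had only a probe set shared with Cyp4a31 and was kept apart. The study compared 18 male Mus musculus domesticus trapped at 3600 m in La Paz, Bolivia, with those trapped at 100 m in Lima, Peru. Each altitude gave 9 mice, 3 from each of 3 trapping locations, written here as high A, high B and high C, and low A, low B and low C, with the mouse number after the letter. No animal carried a stated allele or received a stated agent, and each mouse gave 1 liver array with no pooling. The labels give the strain as C57BL/6J although the mice were trapped in the wild. Altitude coincided with city and mouse population, so these cannot be told apart, and neither feeding state nor hour of sampling was given in the sources used.

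Liver burns fatty acids mainly in mitochondria, where acyl groups enter through the carnitine shuttle, are shortened by repeated cycles of dehydrogenation, hydration, a further dehydrogenation and thiolytic cleavage, and pass their electrons to the respiratory chain. Peroxisomes shorten very long chains, and microsomal cytochrome P450 enzymes of the Cyp4a family hydroxylate the far end of the chain. During fasting, fatty acids released from fat tissue activate PPAR alpha, which raises transcription of genes in all of these steps and of the hormone gene Fgf21, and its activity depends on its ligands as well as on its amount.

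All values are log2 levels as the authors normalized them, so that each unit is a doubling, and they can be compared between mice for a gene but not between genes. For 27 of the 29 genes the mean exceeded the level of the median gene, 6.31. All 10 measured hepatocyte markers were above that median as well and had a median altitude difference of -0.01, whereas 0 of 8 skeletal muscle markers were. Array medians lay between 6.26 and 6.33, and the correlation between any 2 arrays was between 0.974 and 0.994. A sign of RNA integrity, the signal of the Actb control at its 3 prime end minus that at its 5 prime end, was 1.40 ± 0.32 in the mice from high altitude, against 1.21 ± 0.17 in those from low altitude (SD over 9 mice each), a difference with p = 0.149 by an exact permutation test on both sides. The mouse low B1 stood apart in these genes. It was below the median of the 18 mice in 29 of 29 of them and the lowest of all mice in 13, although it was the lowest in only 4.45% of all genes, so results that rest on it are given with and without it. Because whole liver was measured, fewer cells of a type and less RNA per cell cannot be told apart.

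Of the 29 genes, 1 differed between altitudes, Echdc3, which was higher at high altitude (limma, adjusted p under 0.05 over all genes). Over all 18193 genes, 66 passed this test, or 0.363%, and 41, or 0.225%, were higher at high altitude. The 29 genes were chosen with earlier results of these data known, so the call of Echdc3 is not evidence about the group. The receptor gene and most mitochondrial enzymes had lower means at high altitude, and Cd36 and Pdk4 had higher means, without passing the adjusted test. In all, 11 of the 29 differences were positive and 18 negative, and without low B1 5 were positive and 24 negative. Their median was -0.09, against 0.00 over all genes, of which 48.4% were negative. The median was -0.15 without low B1. That mouse was below the median of the 18 mice in all 29 genes, so leaving it out raises the low altitude means. Without high B3, which was below that median in 28 of the 29, the median difference was -0.07. With the RNA integrity measure as a covariate the median difference was -0.02, with 13 positive and 16 negative differences. At an unadjusted p under 0.05 there were 8 of the 29, against 11.5% of all genes. Of these 8, 5 had negative differences (Ppara, Acadl, Acaa2, Eci1 and Eci2) and 3 had positive ones (Cd36, Pdk4 and Echdc3). The 3 location means of one altitude lay entirely outside those of the other in 8 of the 29, against 14.6% of all genes. Ppara, Acads, Hadha, Acaa2 and Eci2 were the lower ones at high altitude, and Cd36, Pdk4 and Echdc3 the higher ones.

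**Figure D1:**
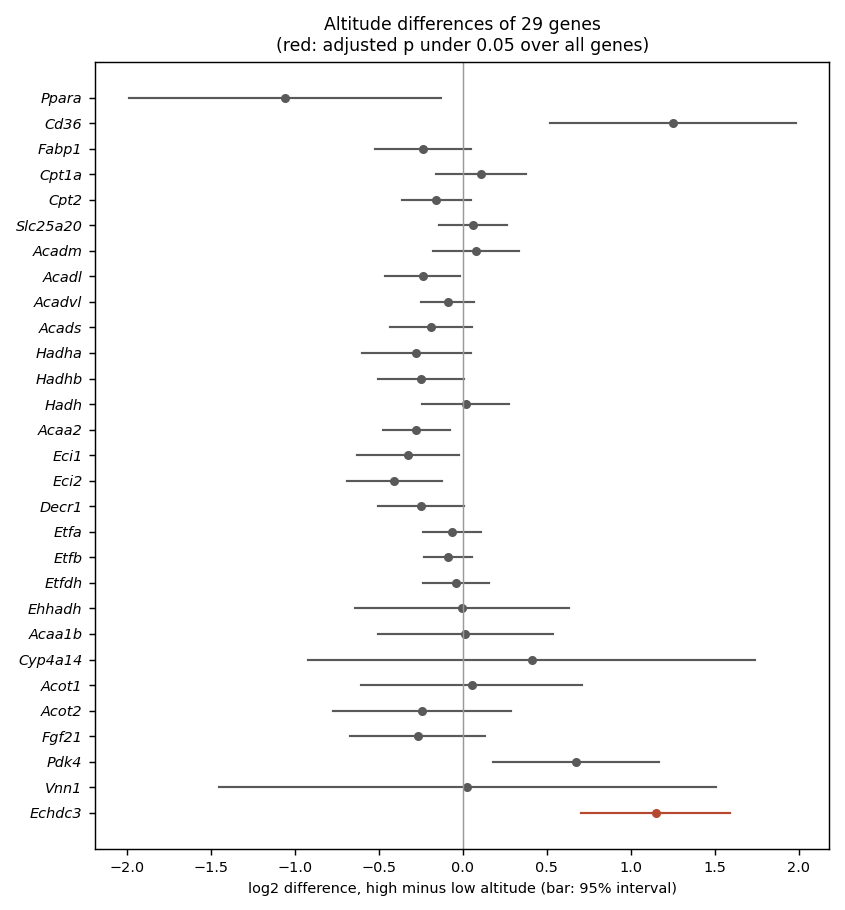
Log2 difference, high minus low altitude, of each of the 29 genes (horizontal axis; points are estimates from 9 mice per altitude, bars 95% intervals, rows ordered by role from receptor to Echdc3). Echdc3, in red at 1.15, is the gene past the adjusted threshold, and Ppara at -1.06 and Cd36 at 1.25 have wide intervals that do not reach 0. Those of Acadl, Acaa2, Eci1, Eci2 and Pdk4 do not reach 0 either, and the intervals are not adjusted for the number of genes.

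Ppara encodes the receptor itself. Its level was 8.02 at the lowest, 9.84 at the median and 11.41 at the highest in high altitude mice, against 9.03, 10.98 and 11.56 in low altitude mice. The groups overlapped: 3 of 9 high altitude mice lay below every low altitude mouse, and 2 lay above the low altitude mean. The difference was -1.06 ± 0.45 (SE), with an adjusted p of 0.342. The 3 high altitude mice with the lowest levels came from 2 locations, high A1 at 8.14, high C1 at 8.02 and high C3 at 8.46, while high C2 was at 11.41 and high A2 at 10.99. High C thus held both the lowest and the highest high altitude mouse. Without low B1, the lowest low altitude mouse, the difference was -1.28 (adjusted p = 0.195). The 2 brighter probe sets of Ppara followed each other across the mice (r = 0.95, n = 18), and the second had a difference of -0.66 ± 0.29 (SE). The third did not follow the first (r = 0.13) and had a difference of 0.12 ± 0.13 (SE), so the size and the sign of the difference depended on the probe set, and where each lies on the transcript was not examined.

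Uptake and entry into mitochondria involve the fatty acid translocase Cd36, the liver fatty acid binding protein gene Fabp1, the carnitine palmitoyltransferase genes Cpt1a and Cpt2, and the carnitine-acylcarnitine carrier gene Slc25a20. Cd36 had a level of 8.17 at the lowest, 9.39 at the median and 10.22 at the highest in high altitude mice, against 6.97, 7.92 and 9.63 in low altitude mice. Every one of the 9 high altitude mice exceeded the mean of low altitude, and 4 exceeded all of the low altitude mice. The difference of 1.25 ± 0.35 (SE), a fold of 2.38, had an adjusted p of 0.129. It was seen in each of the 3 Cd36 probe sets, at 1.25, 1.21 and 1.52. Low B1 was the lowest mouse, and the difference without it was 1.10 (adjusted p = 0.174).

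Cpt1a, the gene of the outer membrane enzyme that controls entry of long-chain acyl groups, gave no such separation. It lay at 11.04, 11.38 and 11.64 (lowest, median and highest) in high altitude mice, against 10.72, 11.27 and 11.70 in low altitude mice, ranges that overlapped almost fully. Its difference was 0.11 ± 0.13 (SE, adjusted p = 0.835), with a 95% interval from -0.16 to 0.37. Cpt2 of the inner membrane was at -0.16, Slc25a20 at 0.06 and Fabp1 at -0.24, with adjusted p between 0.543 and 0.886. For Cpt2, 4 of 9 high altitude mice lay below every low altitude mouse.

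Cd36 is also made by macrophages, fat cells and endothelium. All 12 Kupffer cell markers were at positive differences, the median of which was 0.37, and 0 were called by limma. An unadjusted p under 0.05 was reached by 5, against 11.5% of all genes. Their mean level ranged from 8.89 to 10.24 in high altitude mice and from 8.60 to 9.75 in low altitude mice. The defining markers Clec4f, at 0.03, and Cd5l, at 0.02, had the smallest differences along with Cd68 at 0.16, and Lyz2, at 0.68, had the largest. Of 6 measured fat cell markers, 3 were positive, and Adipoq and Lep, with means of 3.46 and 4.14 in high altitude mice and 3.47 and 4.14 in low altitude mice, lay well below the median gene. Of 9 endothelial markers, 5 were positive, with a median of 0.02. Of 12 measured lymphocyte markers, 10 were positive, with a median of 0.46, and 8 had an unadjusted p under 0.05, against 11.5% of all genes. Among them 2, Ighm and Jchain, were called higher by limma, against 0.225% of all genes. The mean level of the 12 ranged from 5.72 to 6.81 in high altitude mice and from 5.38 to 5.66 in low altitude mice, without overlap. Only 4 of the 12 lay above the median gene level. Genes known to be higher in female than in male mouse liver were positive in 9 of 10 measured cases and male-biased genes negative in 10 of 11. In either list 0 were called by limma, and 0 and 4 of them had an unadjusted p under 0.05, against 11.5% of all genes. These marker lists were chosen with earlier results of these data known, and their part in the Cd36 and Echdc3 differences was not tested.

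The mitochondrial cycle itself was covered by 8 genes. Acadm, Acadl, Acadvl and Acads encode acyl-CoA dehydrogenases for medium, long, very long and short chains, Hadha and Hadhb the subunits of the trifunctional protein, Hadh a hydroxyacyl-CoA dehydrogenase, and Acaa2 a ketoacyl-CoA thiolase. None of the 8 passed the adjusted test and 2 had an unadjusted p under 0.05, against 11.5% of all genes. Of the differences, 6 were negative and 2 positive, with a median of -0.21. Acaa2 was at 11.76 at the lowest, 12.13 at the median and 12.34 at the highest in high altitude mice, against 12.14, 12.33 and 12.86 in low altitude mice. No high altitude mouse reached the low altitude mean, all 9 low altitude mice exceeded the high altitude mean, and the ranges still overlapped. The difference was -0.28 ± 0.10 (SE, adjusted p = 0.220), and its other probe sets gave -0.18 and -0.27.

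Acadl lay at 11.03, 11.37 and 11.61 in high altitude mice, against 11.07, 11.68 and 11.86 in low altitude mice. Only 1 of 9 high altitude mice was above the low altitude mean. Its difference was -0.24 ± 0.11 (SE, adjusted p = 0.392). Its second probe set was dim, with a mean of 3.85, did not follow the first (r = -0.01, n = 18) and was not read for direction. Hadha was at -0.28, Hadhb at -0.25, Acads at -0.19 and Acadvl at -0.09. Hadh at 0.02 and Acadm at 0.08 were the positive ones, and both turned negative without low B1, at -0.05 and -0.00121.

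Double bonds in unsaturated chains are moved by the isomerases Eci1 and Eci2 and reduced by Decr1, a dienoyl-CoA reductase. All 3 were negative, 2 of them at an unadjusted p under 0.05, against 11.5% of all genes. Eci2 was at 10.18 at the lowest, 10.48 at the median and 10.95 at the highest in high altitude mice, against 10.54, 10.82 and 11.51 in low altitude mice. Of the 9 high altitude mice, 6 lay below every low altitude mouse, and the 3 that did not were the mice of high C, at 10.68, 10.95 and 10.88. The difference was -0.41 ± 0.13 (SE), a fold of 0.754, with an adjusted p of 0.197. Eci1 had a difference of -0.33 ± 0.15 (SE, adjusted p = 0.389), and Decr1 of -0.25 ± 0.12 (SE, adjusted p = 0.448), with -0.40 in its second probe set.

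Electrons leave the acyl-CoA dehydrogenases through electron transfer flavoprotein, whose subunits are encoded by Etfa and Etfb, and through Etfdh, which hands them to ubiquinone. Etfb, with an SD of 0.13 over the 18 mice, varied least of the 29. It lay between 11.93 and 12.19 in high altitude mice and between 11.91 and 12.30 in low altitude mice, a range of 0.39 over all 18. The differences were -0.07 for Etfa, -0.09 for Etfb and -0.04 for Etfdh, with 95% intervals that lay within -0.24 and 0.16 and adjusted p between 0.698 and 0.932.

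In peroxisomes, Ehhadh encodes the bifunctional hydratase and dehydrogenase and Acaa1b a thiolase. Ehhadh was at 10.61, 11.34 and 12.63 (lowest, median and highest) in high altitude mice, against 10.49, 11.30 and 12.63 in low altitude mice. The groups coincided, and the difference was -0.01 ± 0.31 (SE, adjusted p = 0.998). Acaa1b likewise had a difference of 0.02 ± 0.25 (SE, adjusted p = 0.991). Both intervals were wide, from -0.64 to 0.63 for Ehhadh and from -0.50 to 0.53 for Acaa1b, so a difference of either sign of about that size was not detectable with these arrays.

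Cyp4a14, a fatty acid hydroxylase and one of the most responsive PPAR alpha targets in mouse liver, was at 10.92 at the lowest, 11.72 at the median and 12.78 at the highest in high altitude mice. In low altitude mice it was at 6.94, 11.78 and 13.20. The medians nearly coincided, and the low value was that of low B1, with low C1 next at 9.66. The range over all mice was 6.26, a fold of 76.4, the widest of the 29. The difference was 0.41 ± 0.64 (SE, adjusted p = 0.884) and turned to -0.15 without low B1 (adjusted p = 0.944). The probe set that Cyp4a10 shares with Cyp4a31 had low B1 as its lowest mouse too, at 10.94, and a mean of 13.21 ± 0.30 in high altitude mice, against 12.85 ± 0.88 in low altitude mice (SD, n = 9 each). In a test of all 45101 probe sets, of which 136 were called, that difference of 0.36 had an adjusted p of 0.734.

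Acot1 and Acot2 encode a cytosolic and a mitochondrial acyl-CoA thioesterase, which release free fatty acids from coenzyme A. Acot1 ranged from 8.37 to 10.18 in high altitude mice and from 8.23 to 10.64 in low altitude mice, and its difference was 0.05 ± 0.32 (SE, adjusted p = 0.976). Acot2 had a difference of -0.24 ± 0.25 (SE, adjusted p = 0.801). The 2 genes share a further probe set, which was at -0.14 and was not used for either.

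The 3 genes of the fasting response differed from each other. Pdk4 encodes the kinase that turns off pyruvate dehydrogenase and so spares glucose. It lay at 5.41, 6.46 and 7.16 in high altitude mice, against 5.13, 5.65 and 6.66 in low altitude mice. Of the 9 high altitude mice, 8 were above the low altitude mean, and 3 were above every low altitude mouse. The difference was 0.68 ± 0.24 (SE), a fold of 1.60, with an adjusted p of 0.233. Fgf21, the fasting hormone of the liver, was at 5.42, 6.31 and 6.49 in high altitude mice, against 5.68, 6.47 and 7.15 in low altitude mice, with overlapping ranges and a difference of -0.27 ± 0.19 (SE, adjusted p = 0.656). Both genes lay near the median gene level. Vnn1, the pantetheinase that frees pantothenic acid for coenzyme A synthesis, ranged from 6.64 to 10.63 in high altitude mice and from 5.75 to 10.62 in low altitude mice. It had the largest SD of the 29, 1.62 over the 18 mice, and a difference of 0.03 ± 0.71 (SE, adjusted p = 0.995).

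Echdc3, which encodes a mitochondrial protein of the enoyl-CoA hydratase family, was at 9.46 at the lowest, 10.06 at the median and 10.69 at the highest in high altitude mice, against 8.51, 8.63 and 9.95 in low altitude mice. All 9 high altitude mice exceeded the low altitude mean and 7 exceeded every low altitude mouse. The overlap was between low B2 at 9.95 and low A3 at 9.66 on one side and high B2 at 9.68 and high B3 at 9.46 on the other. Echdc3 was higher by 1.15 ± 0.21 (SE) at high altitude, a fold of 2.22, with a limma adjusted p of 0.0234. Its location means were 10.23 at high A, 9.72 at high B and 10.42 at high C, against 9.19 at low A, 9.18 at low B and 8.55 at low C. The call was made in 30 of 36 alternative settings, over which the adjusted p ranged from 0.00672 to 0.269. It was lost without low B3 (adjusted p = 0.058), without the locations high A (0.0715), high C (0.0810) or low C (0.139), with mouse number as a block (0.0656), and with 1 mean per location (0.269). Without low B1 it was kept (1.10, adjusted p = 0.0408). The gene had 1 probe set, so the alternative probe set rules left its levels unchanged. Leaving out the location block nearly repeated the main fit (limma adjusted p = 0.0219). These settings add little to the count of 30.

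**Figure D2:**
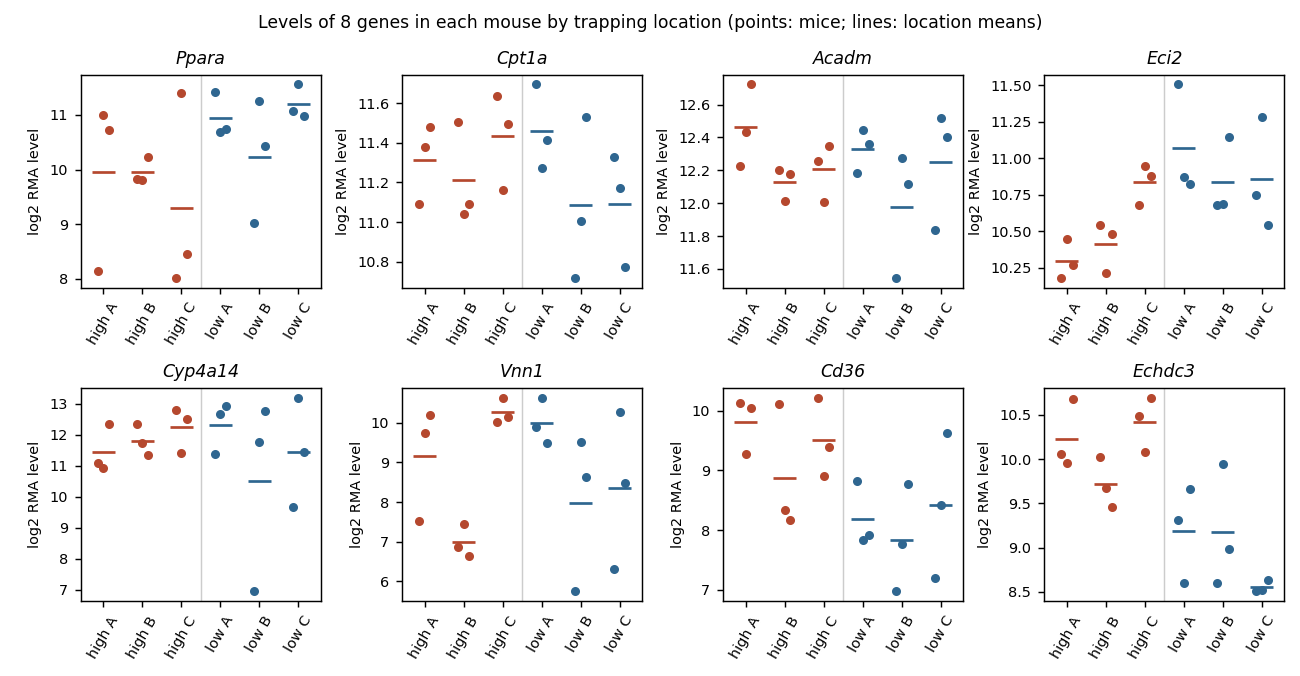
Log2 level of 8 of the genes (vertical axes, scaled per gene) in each mouse, by trapping location, with high altitude in red on the left and low altitude in blue on the right; points are mice and lines location means. Echdc3 separates 7 of 9 high altitude mice from all low altitude mice, Cyp4a14 has the mouse low B1 at 6.94, and the 3 high B mice are the lowest of the high altitude mice in Vnn1, a location difference that did not pass the test (limma adjusted p = 0.302).

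A wider set of 114 genes of the same pathways was read in the same way, and 101 were measured. Of these 0 were called by limma between altitudes and 22 had an unadjusted p under 0.05, against 11.5% of all genes. There were 42 positive and 59 negative differences, with a median of -0.04. Among receptor partners and regulators, the 4 with the smallest p were Foxa2 at 0.43, Ppard at 0.38, Lpin1 at 0.75 and Creb3l3 at -0.20. All 3 measured genes of ketone body metabolism were negative: Bdh1, the hydroxybutyrate dehydrogenase, at -0.81, the thiolase Acat1 at -0.29, and the monocarboxylate transporter Slc16a1 at -0.22. In other mitochondrial oxidation, Acad11, a dehydrogenase of long chains, was at 0.39, while Mlycd, the malonyl-CoA decarboxylase, was at -0.33, Hsd17b10 at -0.47 and Echdc1 at -0.24.

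Among genes of activation and uptake, the acyl-CoA synthetase Acsm1 was at -0.42, Slc27a5 at 0.17, Slc27a1 at -0.13 and Fabp4 at 0.51. Peroxisomal and related genes gave 8 positive and 17 negative differences, with the thioesterases Acot8 at -0.35, Acot12 at 0.35 and Acot4 at 0.48 and the import factor Pex14 at -0.21. Of the microsomal hydroxylases, Cyp4v3 was at -0.66, Cyp4f14 at -1.21 and Cyp4a12a at 0.38, and the fatty aldehyde dehydrogenase Aldh3a2 was at 0.36. Lipid droplet and lipolysis genes included the hormone-sensitive lipase gene Lipe at 0.20, the droplet coat gene Plin3 at 0.46, the lipase inhibitor G0s2 at -0.86 and Fitm1 at -0.40. The adjusted p of these named genes lay at or above 0.117, the value of Acad11.

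Between locations of one altitude, 0 of the 29 genes passed limma's F test at high altitude, against 0.302% of all genes, and 0 passed at low altitude, against 0.0715%. At an unadjusted p under 0.05 there were 5 at high altitude (Eci1, Eci2, Ehhadh, Acaa1b and Vnn1), against 8.91% of all genes, and 1 at low altitude (Hadhb), against 6.68%. Vnn1 had the smallest p of them, 0.0089 at high altitude (adjusted p = 0.302). Its level was 10.005, 10.63 and 10.15 in the mice of high C, 7.53, 9.73 and 10.20 in those of high A, and 6.88, 7.44 and 6.64 in those of high B. The 3 high B mice were below all others of that altitude. Ehhadh followed the same order, with location means of 12.19 at high C, 11.45 at high A and 10.82 at high B, as did Acaa1b at 13.00, 12.48 and 11.89.

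The genes tended to share the order of locations. High C had the highest of the 3 high altitude means in 24 of the 29, against 32.4% of all genes, and high B the lowest in 20, against 33.5%. The RNA integrity measure was 2.02, 1.46 and 1.63 in the mice of high B. It lay between 0.84 and 1.38 in those of high A and high C. With it as a covariate, 18 of all genes passed the F test at high altitude, against 55 without it, and 0 of the 29. Its part in the order of locations was not tested. At low altitude, low A had the highest mean in 25, against 34.2% of all genes, and low B the lowest in 21, against 31.3%. Genes that vary together across mice share such an order, so these counts describe the group and are not independent of each other. When low B1 was left out, low B was lowest in 10 of the 29, against 34.1% of all genes, and low C in 17, against 31.7%. The count for low B thus rested on low B1.

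Across mice, the genes varied together. Over their 406 pairs, with each altitude centred on its own mean, Pearson's r had a median of 0.40 and was positive in 378 (n = 18 mice). The mean r was 0.39 over these pairs and 0.00 over all pairs of the 18193 genes. The genes of a mouse share its array and RNA preparation. Without low B1 the median was 0.31, with 339 positive pairs. Within high altitude alone the median was 0.33, and within low altitude 0.52, or 0.29 without low B1. The closest pairs were Acadvl with Eci1 (0.87), Acadl with Vnn1 (0.86), Eci1 with Etfdh (0.85), Acadl with Cyp4a14 (0.83) and Hadha with Decr1 (0.81), which were at 0.83, 0.81, 0.81, 0.74 and 0.79 without low B1.

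The spread between mice differed by role. Of the 29, 11 were among the 10% of all genes with the largest SD over the 18 mice. These included Vnn1 (1.62), Cyp4a14 (1.47), Ppara (1.15), Cd36 (1.02), Echdc3 (0.76), Acot1 (0.71), Ehhadh (0.69) and Pdk4 (0.64), and the rest were Acot2, Acaa1b and Fgf21. Acadvl, Etfa and Etfb, 3 genes in all, were below the median spread. The genes of the mitochondrial cycle, the isomerases and electron transfer all had an SD of 0.37 or less.

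**Figure D3:**
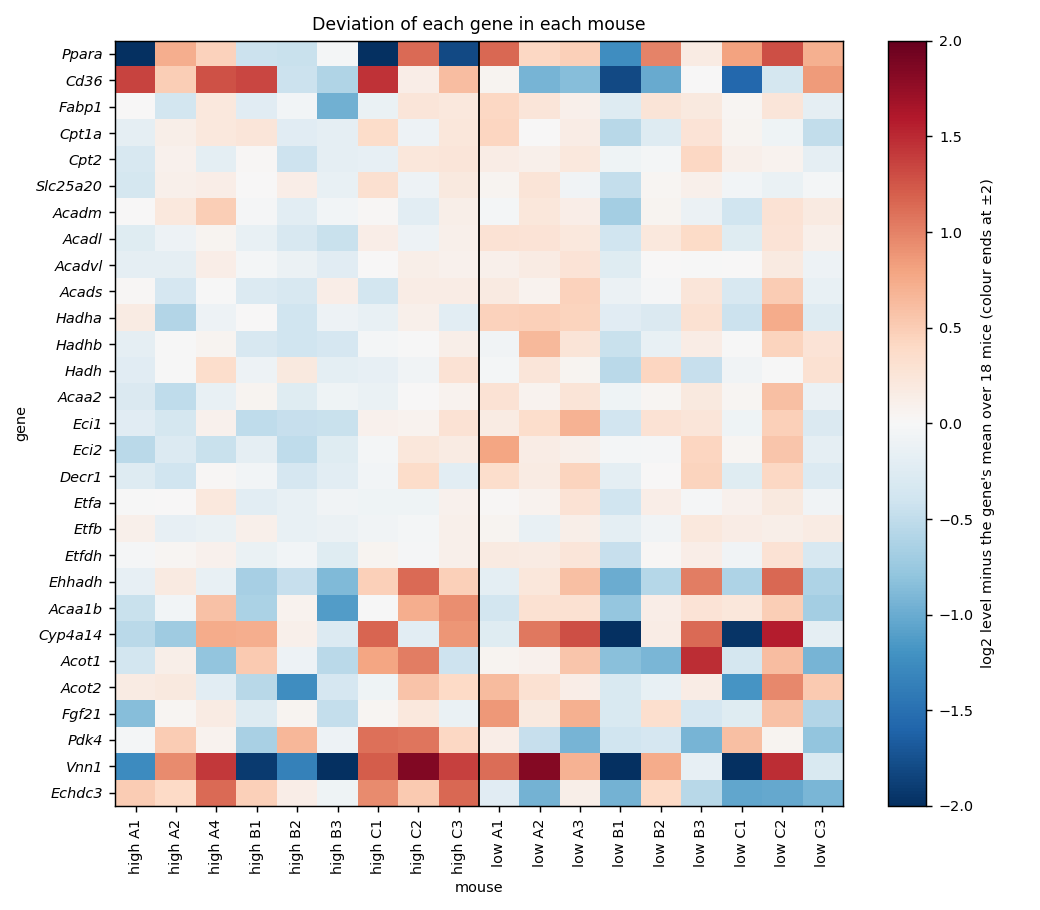
Deviation of each of the 29 genes (rows, by role) in each of the 18 mice (columns, high altitude left of the line and low altitude right of it) from the gene's mean over all mice, on the log2 scale, with colours ending at plus and minus 2. The column of low B1 is below the mean throughout most rows and holds the lowest value of 13 genes, and the column of low C2 holds the highest value of 8.

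Individual mice carried much of this shared variation. The mean deviation of the 29 genes from their means over all mice was -0.73 in low B1, the lowest of the 18. Low C2 was at the other end at 0.41, and was the highest mouse in 8 genes. At high altitude the mean deviation ran between -0.37 in high B3, which was below the median in 28 of the 29, and 0.31 in high C2. The RNA integrity measure was 1.40 in low B1 and 0.98 in low C2, and 1.63 in high B3. It was lowest in high A1, at 0.84, and highest in high B1, at 2.02, and these mice had mean deviations of -0.22 and -0.13. All mice with a measure of 1.40 or above had negative mean deviations. Those at 1.31 or below had positive ones, except high A1, and both signs occurred in between. The part of the RNA integrity measure in the shared variation was not tested. With it as a covariate, the altitude difference was 0.60 for Vnn1, 0.29 for Ehhadh, 0.63 for Cyp4a14 and 1.26 for Echdc3, of which only Echdc3 passed the adjusted test (adjusted p = 0.0106).

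A further comparison asked whether the other 28 genes followed Ppara across mice. In a limma fit with altitude as a term, 0 of the 28 slopes on the Ppara level passed the adjusted test, and so did 0 of 18192 genes, or 0%. Of the 28, 1 gene, Fgf21, had an unadjusted p under 0.05, against 2.29% of all genes. The slopes were positive in 25 of 28, with a median of 0.05 log2 units per log2 unit of Ppara, against 0.00 over all genes, of which 51.7% were positive. This lean rested on low B1, without which the median slope was -0.01. The third Ppara probe set, an alternative chosen after seeing the data, gave a median slope of 0.43 and 0 calls.

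Over all 18 mice, Pearson's r with Ppara was positive in 24 of 28, with a median of 0.25. Tests with 100000 permutations for each of 18192 relations gave 0 genes past Benjamini-Hochberg adjustment by r or by Spearman's rho, and among the 28 an unadjusted p under 0.05 for 1 by r and for 4 by rho, against 3.5% and 3.85% of all genes. The closest was Fgf21, with r = 0.53 (n = 18, permutation p = 0.0259, adjusted p = 1.00) and rho = 0.61 (permutation p = 0.00905, adjusted p = 1.00). Its r was 0.48 without high C1 and high A1, the mice farthest from the median of Ppara, 0.51 within high altitude (n = 9, exact p = 0.154) and 0.49 within low altitude (n = 9, exact p = 0.172). It was thus of similar size in both groups and not past the threshold in either. Echdc3 had r = -0.41 and Cd36 r = -0.36 over the 18 mice, the most negative of the 28. Both genes also differed in mean in the direction opposite to Ppara between altitudes, and with each altitude centred their r was -0.07 and -0.09.

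Relations within each altitude were then computed, with no adjustment of their p-values. Among the 9 high altitude mice, r with Ppara was positive for 15 genes and negative for 13, with a median of 0.01 and a range from -0.55 (Etfb) to 0.51 (Fgf21). Of the 28, 0 had an unadjusted exact p under 0.05, against 1.94% of all genes. Among the 9 low altitude mice, r was positive for 28 of 28, with a median of 0.48, against -0.01 over all genes. There were 4 with an unadjusted exact p under 0.05, against 4.91% of all genes: Etfa with r = 0.78 (exact p = 0.0383), Acadm with 0.71 (exact p = 0.0426), Fabp1 with 0.68 (exact p = 0.043) and Hadh with 0.66 (exact p = 0.047). By rank these gave rho = 0.53, 0.42, 0.55 and 0.38, with exact p between 0.133 and 0.312. This pattern rested on low B1, the lowest of its group in Ppara and in many of the other genes. Without it (n = 8) the median r was 0.03 and 16 of 28 were positive, with Etfa at 0.17, Acadm at 0.14, Fabp1 at 0.30 and Hadh at 0.32.

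**Figure D4:**
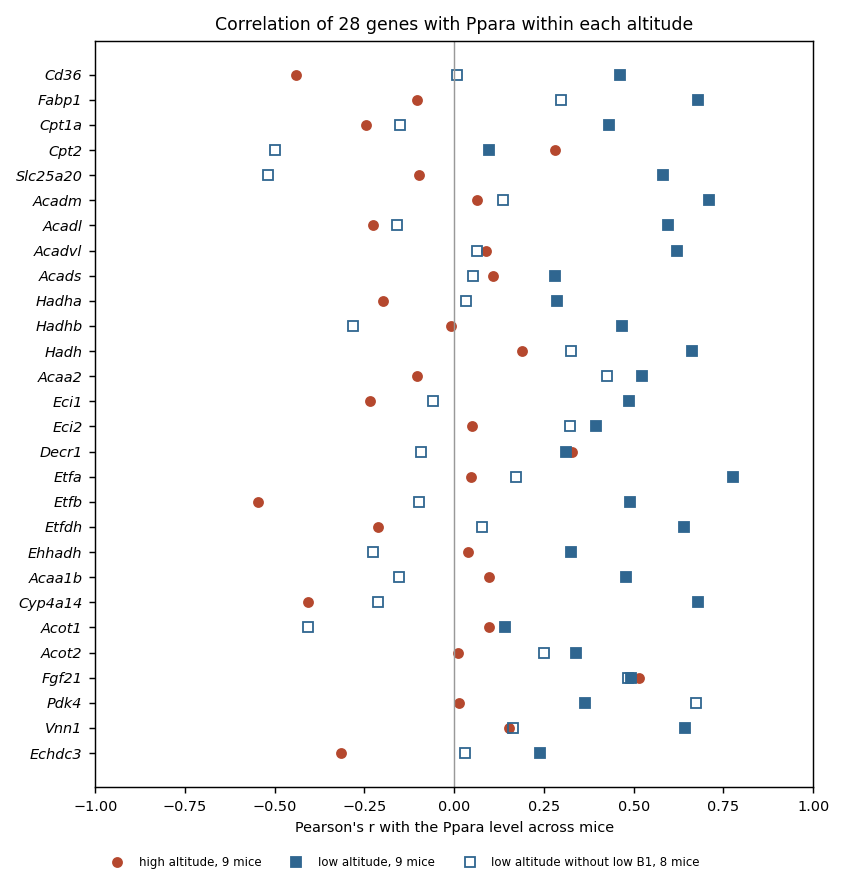
Pearson's r of each of 28 genes with the Ppara level across mice (horizontal axis), within the 9 high altitude mice (red circles), the 9 low altitude mice (filled blue squares) and the 8 low altitude mice other than low B1 (open squares). The filled squares all lie above 0, with a median of 0.48, whereas the median is 0.01 for the circles and 0.03 for the open squares.

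The difference between the slopes of the altitudes was tested directly. None of the 28 passed limma's interaction test after adjustment, against 1 gene, or 0.0055%, of all genes. There were 4 with an unadjusted p under 0.05 (Acadm, Etfa, Etfdh and Cyp4a14), against 4.71% of all genes, and 27 of the 28 slope differences, high minus low, were negative, against 48.1% over all genes. Without low B1, 18 were negative and 10 positive, against 49.6% negative over all genes, and their median was -0.03, against -0.23 with it. Cyp4a14 had the largest one, -2.02 ± 0.58 (SE, limma adjusted p = 0.941). Its r with Ppara was -0.41 within high altitude and 0.68 within low altitude, and -0.21 at low altitude without low B1, when its slope difference was 0.42.

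**Figure D5:**
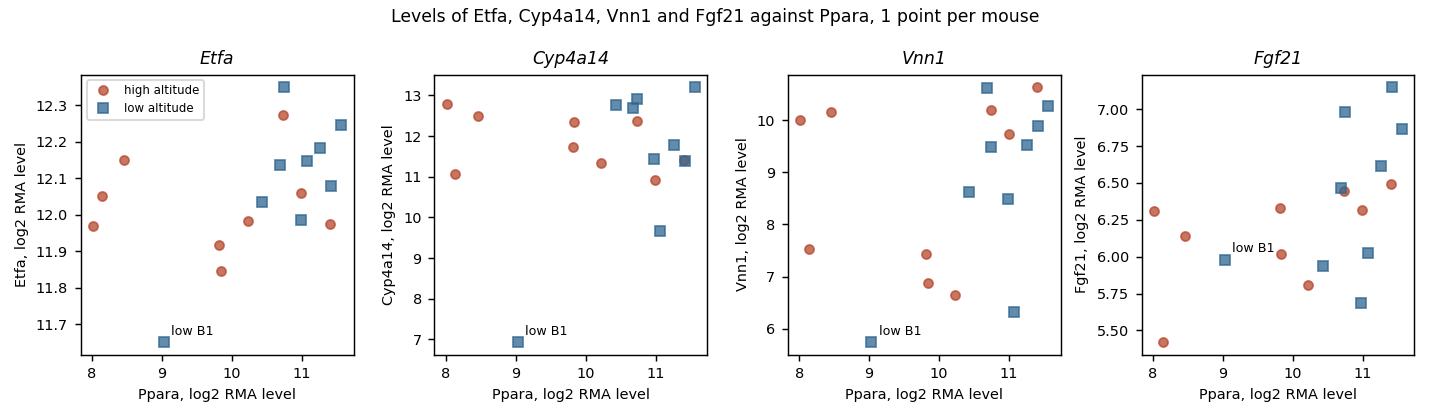
Log2 levels of Etfa, Cyp4a14, Vnn1 and Fgf21 (vertical axes) against Ppara (horizontal axes), 1 point per mouse, with high altitude as red circles and low altitude as blue squares. Low B1, at a Ppara level of 9.03, is the lowest point for Etfa, Cyp4a14 and Vnn1 but not for Fgf21.

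Among all genes, those with the most extreme slope statistics on Ppara were outside the group, and none passed the adjustment. The most negative statistic belonged to Angptl8, a liver hormone of fed mice that restrains lipoprotein lipase. Its slope was -0.47 ± 0.08 (SE, limma adjusted p = 0.288). With each altitude centred, its r with Ppara was -0.81 (n = 18). Angptl8 averaged 7.95 ± 0.82 in high altitude mice, against 8.99 ± 0.28 in low altitude mice (SD, n = 9 each), a difference of -1.04 (adjusted p = 0.0939), so its mean was lower at high altitude, as that of Ppara was, while within altitudes it ran against Ppara. The next were Sdc1 (r = -0.73), Zfp729a (-0.73), Ifi27l2b (-0.67) and Gabrb1 (-0.70). The most positive were Cystm1 (0.75), Cc2d2a (0.70), Cenpm (0.64), Nras (0.67) and Ap4b1 (0.66). The adjusted p of each of these 9 slopes was 1.00.

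Clock and fasting genes were set beside Ppara because its mRNA is known to cycle over the day and to rise with fasting. Of the clock genes, those most correlated with Ppara after centring were Cry2 (0.38), Per2 (0.33), Arntl (-0.27) and Usp2 (0.20). Of the genes of fasting and gluconeogenesis they were Txnip (0.51), Irs2 (0.43), Pck1 (-0.16) and Tat (-0.10). Of the sex-biased genes they were Elovl3 (-0.33), Mup3 (0.27), Keg1 (0.22) and Hsd3b5 (-0.17) among the male-biased and Cyp17a1 (0.37), Cux2 (-0.24), Acot3 (-0.24) and Cyp3a44 (0.16) among the female-biased. None of the slopes behind these correlations (n = 18 mice) was called by limma over all genes.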

How the data were processed

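Liver RNA of 18 mice was measured on 1 Affymetrix mouse array each. The deposited table held 45101 probe sets as log2 values, which the authors made with RMA in the R package affy, per the submitters' processing notes (with no version in the sources used). RMA subtracts background, quantile normalizes arrays and summarises probe sets, which can compress weak signals. Detection calls and scan dates were not used here, so batches by date were not tested, and the number of arrays limits the precision. The median SE of an altitude difference was 0.0869.

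Names came from the platform annotation: 34945 probe sets had 1 symbol and 932 several. The brightest single-gene probe set stood for a gene, which gave 18193 genes with no filter. All 29 measured genes matched a RefSeq gene by Entrez number. Groups came from the sample titles.

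From these log2 values, a model of altitude was fitted in limma 3.58.1 (R 4.3.3), in which duplicateCorrelation estimated a correlation of 0.00586 within locations and eBayes used a trend. Tests were two-sided and p-values were adjusted by Benjamini-Hochberg over all genes, with a threshold of 0.05. An F test compared the 3 locations of each altitude. Slopes on Ppara were fitted with altitude as a term, and an interaction tested their difference. Pearson's r and Spearman's rho used 100000 permutations over 18 mice, or all 362880 orders within an altitude. Mice of 1 location were treated as separate animals, which the labels' mouse numbers name.

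Named genes were all measured members and the 4 genes of smallest altitude p per further pathway list. Also named were the 5 most positive and 5 most negative slope statistics on Ppara, each slope divided by its SE. The last were the 4 clock, fasting, male-biased or female-biased genes most correlated with Ppara. Members, lists and marker genes were chosen with earlier results of these data known. The remaining measured erythroid markers gave 1 positive and 3 negative differences with 0 called.

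On simulated data with 18193 genes, altitude changes of 0.5, 1 and 2 on the log2 scale were called in 76.1%, 100% and 98.5% of changed genes. For 18192 genes, slopes on Ppara of 0.1, 0.3 and 0.5 were called in 17.9%, 88.1% and 92.4%, and slope differences of 0.3, 0.6 and 1 in 34.3%, 77.6% and 92.4%. Location differences of 0.5, 1 and 2 were called in 43.3%, 77.6% and 98.5% at high and 40.3%, 83.6% and 100% at low altitude. These shares pool the changed genes of each size, so they do not give the share for genes of large spread, such as Ppara and Cd36. In the measured data, the altitude differences of Ppara, -1.06 ± 0.45 (SE), and Cd36, 1.25 ± 0.35 (SE), were not called. Their limma adjusted p was 0.342 and 0.129, and the median SE over all genes was 0.0869. Alternatives changed the normalization, centring, level filter, probe set rule, moderation, array weights, an RNA integrity covariate, the treatment of location and mouse number, and left out each mouse and each location. Figures were drawn with matplotlib 3.10.9 in Python 3.11.15.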

Additional observations from a re-analysis of the deposited data

Results flagged for a closer look

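The level of Ppara in low B1 was 9.03, far from the other low altitude mice, of which the nearest was at 10.43. The gap was 0.553 of the range of the 9 mice, above Dixon's critical value for that number. It was 1 of 58 such checks, over 29 genes at 2 altitudes, and chance alone marks about 1 in 20.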

How the results depend on the processing

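The median altitude difference of the 29 genes stayed negative in all 36 alternatives, between -0.25 and -0.01. Its size depended on the locations kept: it was -0.25 without location high C and -0.01 without location high B. Over all genes the count of 66 became 0 with 1 mean per location (3 against 3), 149 with array weights, 34 without location high A, 100 without high B, 30 without low B and 34 without low C. With mouse number as a replicate block it was 28. Leaving out single mice gave between 19 (without low B3) and 84, including 38 and 40 without high B1 or high B2, 27 without low A2 and 39 without low C2. Among the 29 genes the count of 1 (Echdc3) became 0 with 1 mean per location, with the replicate block, without low B3, and without locations high A, high C or low C. It was between 0 and 1 when single mice were left out, and 1 in the other 30 settings. Tests between locations and of slopes on Ppara gave 0 calls among the 29 in every setting run. Differences near 0 changed sign in several settings, 15 of 36 for both Ehhadh and Vnn1. Mouse numbers did not pair the mice: over 40 same-numbered pairs the deviations correlated at -0.01 on average, and 5 of 18 mice correlated best with their own number. Signal over background was not measured here, since detection calls were not used.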
